A study of Mus musculus with 12 samples.

Results

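The arrays numbered 3 are 3 of the 12 arrays in a study of mouse embryonic fibroblasts (MEFs), connective tissue cells grown from embryos, that were wild type (WT), heterozygous (Het) or knockout (KO) for SIRT1, an NAD-dependent protein deacetylase. There is 1 such array in each genotype, and each was set beside the other 3 arrays of its genotype, which are numbered 1, 2 and 5 in WT but 2, 4 and 5 in both Het and KO. The number is the last digit of the sample's name in the labels. The arrays numbered 3 were selected on their expression profiles: in earlier results of these data they stood apart from the other arrays of their genotype, Hox genes among the differences. The size of that difference is therefore a description here, given with no p-value, and tests are kept for other contrasts.

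All 12 arrays were labelled as female cells in log-phase growth with no special treatment, grown in DMEM with 25 mM glucose, 4 mM glutamine and 10% serum. From each, 500 ng of RNA was labelled for a 1-colour array. The study's title names dosage effects of SIRT1 on proliferation and metabolism. The Sirt1 allele is not described, and nothing in the labels says what the number stands for or that arrays of 1 genotype came from separate cultures or embryos. The p-values below therefore speak of the spread among these 12 arrays alone, part or all of which may be technical. A level is the log2 signal minus the 75th percentile of its array, so that 0 is that percentile, and a difference is a number 3 level minus the mean of the other 3 arrays of its genotype, averaged over the 3 genotypes with its standard error (SE). A feature is a gene or an unnamed transcript, represented by 1 probe, and 17132 of 26619 named features outside chromosomes X and Y were bright enough to be compared.

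The array labelled WT number 3 went against its label of female. Xist, the RNA that silences an X chromosome in female cells, stood at -2.94 there and at 1.66 to 3.42 on the 11 other arrays. Ddx3y and Eif2s3y, both encoded on the Y chromosome, stood at 1.04 and 0.92 on it. Het number 3 and KO number 3 read -4.35 and -5.28 for Ddx3y, well above background on both, against -10.16 to -7.04 on the 9 arrays with other numbers. Of those 9, Ddx3y was well above background on 2. Kdm5d and Uty, also on the Y chromosome, were well above background on WT 3 but not on Het 3 or KO 3. Some counts and list medians are therefore also given without WT number 3, though not for every list. The Sirt1 probe read 0.87, 1.08, 0.54 and 0.67 on WT 1, 2, 5 and 3, 0.50, 0.75, 1.32 and 0.91 on Het 2, 4, 5 and 3, and 1.25, 0.49, 0.43 and 1.07 on KO 2, 4, 5 and 3. The genotypes overlapped on it, so this probe does not check the genotype labels.

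Hox genes encode homeodomain transcription factors and lie in clusters, in which neighbouring genes are switched on in an order that matches position along the body axis and, for the late Hoxa and Hoxd genes, along the limb. Fibroblasts keep in culture much of the Hox pattern of the body site they were taken from. MEF preparations hold cells from many sites of the embryo, and transcription factors of limb and trunk, Wnt signals, matrix genes and chemokines all vary with site, density and growth state.

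The promoters of 5 Hox genes are shown because whole Hox clusters differed in opposite directions: the 3 largest differences among the higher genes that the RefSeq table holds, and the 2 lower genes it holds. Hoxc9 and Hoxb2 have no entry in it. They are RefSeq sequences on GRCm38.p6, the 250 bases before a transcription start, 5′ to 3′ on the gene's strand, which is the plus strand for all 5. Capitals mark matches on either strand to TATAAA (the TATA box), CACGTG (an E-box) or TGATTNAT (a site bound by PBX and HOX proteins together). The Hoxd13 promoter is chr2:74667975-74668224, that of the second Hoxd11 start chr2:74682073-74682322, Hoxd10 chr2:74691641-74691890, Hoxb8 chr11:96281655-96281904 and Hoxb4 chr11:96318017-96318266. The first 3 belong to genes that were higher on number 3 and the last 2 to genes that were lower.
Hoxd13: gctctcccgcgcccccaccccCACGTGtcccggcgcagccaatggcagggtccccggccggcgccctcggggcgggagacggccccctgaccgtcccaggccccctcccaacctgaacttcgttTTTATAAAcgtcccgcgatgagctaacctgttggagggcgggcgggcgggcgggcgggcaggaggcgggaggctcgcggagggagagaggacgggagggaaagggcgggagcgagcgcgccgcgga
Hoxd11: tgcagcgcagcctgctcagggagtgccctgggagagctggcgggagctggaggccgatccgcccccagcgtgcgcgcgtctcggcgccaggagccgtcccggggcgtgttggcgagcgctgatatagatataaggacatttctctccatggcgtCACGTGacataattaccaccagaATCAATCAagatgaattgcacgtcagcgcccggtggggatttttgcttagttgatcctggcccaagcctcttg
Hoxd10: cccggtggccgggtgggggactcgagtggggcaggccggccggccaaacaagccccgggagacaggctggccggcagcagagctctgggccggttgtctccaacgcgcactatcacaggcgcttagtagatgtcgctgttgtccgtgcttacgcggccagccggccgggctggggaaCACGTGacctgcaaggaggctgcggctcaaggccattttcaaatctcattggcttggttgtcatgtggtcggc
Hoxb8: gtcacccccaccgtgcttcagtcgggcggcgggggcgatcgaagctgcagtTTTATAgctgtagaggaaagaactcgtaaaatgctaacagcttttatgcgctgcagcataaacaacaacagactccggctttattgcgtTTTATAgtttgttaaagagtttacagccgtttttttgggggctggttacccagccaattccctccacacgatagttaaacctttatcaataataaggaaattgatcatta
Hoxb4: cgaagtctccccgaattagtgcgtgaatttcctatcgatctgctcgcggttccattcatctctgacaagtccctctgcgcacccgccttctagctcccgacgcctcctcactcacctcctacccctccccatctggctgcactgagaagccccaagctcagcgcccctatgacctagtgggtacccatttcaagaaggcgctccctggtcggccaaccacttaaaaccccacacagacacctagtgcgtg

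The Hoxd13 promoter had 31 CpG dinucleotides and a GC content of 74.4%, Hoxd11 and Hoxd10 had 20 CpG each, Hoxb8 had 12 and Hoxb4 had 14. The other Hoxd11 start, not printed, had 2 CpG and no motif match. Over all 32851 promoters of the RefSeq table the median was 6, with quartiles of 2 and 16. In Hoxd13 both TATAAA matches lie in 1 palindromic run on opposite strands, beside 1 E-box. Of the 19 compared Hox genes with a promoter in the table, 8 were set apart as higher on number 3, and 3 of those 8 held CACGTG, 2 TATAAA and 1 TGATTNAT. Among the 9 that were not set apart the counts were 0, 1 and 1, and among the 2 lower ones 0, 1 and 0. CACGTG occurs in 6.02%, TATAAA in 12.4% and TGATTNAT in 2.82% of all promoters of this length. A match describes letters only.

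A feature was called set apart when it was at least 2-fold from the mean of the other 3 arrays of its genotype and beyond each of them, in the same direction in all 3 genotypes. On number 3, 214 of 17132 features were set apart as higher (1.25%) and 246 as lower (1.44%), 460 in all (2.69%). The same count came to 28 for the arrays numbered 2 and 15 for those numbered 5, the other numbers with an array in every genotype. For those numbers the other 3 arrays include number 3, which widens the range to be passed. The counts are therefore not like for like. The 4-fold threshold left 78 higher and 69 lower. Just inside the 2-fold threshold lay Hs3st3a1, Erdr1 and Casp4, with smallest genotype differences of 1.001, 1.002 and 1.006 in size, and just outside it Fam71e1, Glb1l and Fggy, at 1, 0.996 and 0.992. With the background removed by a normal-exponential model, which pulls dim signals together, the counts were 116 and 146, and among features well above background on all 12 arrays they were 109 and 113. The median difference over all 17132 features was -0.10, and 0.06 on unscaled signals.

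Number 3 arrays shared slides with other arrays: WT 3 lay on slide 3 with WT 2, Het 2 and KO 2, and Het 3 and KO 3 on slide 1 with Het 4. Within slide 3, 436 of the 460 features were at least 2-fold apart in the same direction between WT 3 and WT 2, and within slide 1, 444 were between Het 3 and Het 4. Both held for 422. A set-apart feature lies beyond each of these arrays by definition, so the direction was fixed in advance. These counts are therefore no test of slide, whose part was not tested. KO 3 shared no slide with another KO array. Between 24585 and 32033 probes were well above background per array, with 25499, 25016 and 26697 on WT 3, Het 3 and KO 3. Slide 4, with WT 5, Het 5, KO 4 and KO 5, had 31643 to 32033, and the other slides had 24585 to 26697. No number 3 array lay on slide 4. How far counts of arrays well above background, and levels of dim genes, vary with slide was not tested. On WT 3, 4960 features were at least 2-fold from the other arrays of the genotype, against 2352 on Het 3 and 2106 on KO 3, and from 591 to 2706 on the 9 other arrays. For those 9 the other arrays of the genotype include number 3. Arrays of 1 genotype correlated at 0.970 to 0.998 without number 3 and at 0.925 to 0.963 with it. The number 3 arrays of different genotypes correlated at 0.960 to 0.977 with each other. Arrays of different genotypes without number 3 had a similar range, 0.949 to 0.974, and pairs with 1 number 3 array had 0.936 to 0.965.

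The Hox genes had the largest share of set-apart members among the 34 lists. Of 39 listed, 35 were compared; 9 were set apart as higher and 14 as lower on number 3, 65.7% of the list beside 2.69% of all features. All 7 compared Hoxd genes were higher, as was 1 of 11 Hoxa genes, while 8 of 9 Hoxb and 6 of 8 Hoxc genes were lower. The array holds 9 Hoxd genes, of which only these 7 were bright enough to be compared. A gene that is bright on the number 3 arrays alone still enters the comparison, and can then hardly be lower. The share of Hoxd genes that were higher is therefore partly set by this filter. The same holds in the other direction for genes bright on the other arrays alone. The counts of 9 and 14 were the same without WT number 3. In bulk samples, fewer cells that express a gene and less RNA per cell cannot be told apart.

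**Figure D1:**
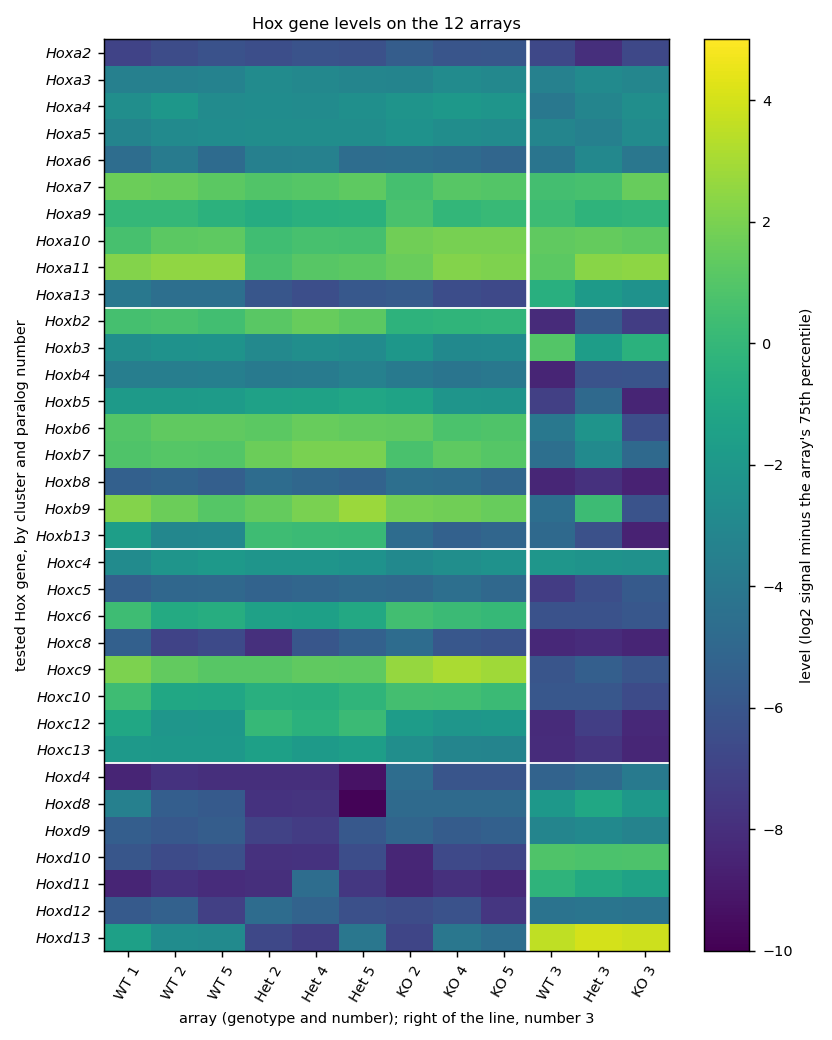
Levels of 34 of the 35 compared Hox genes (vertical, by cluster and paralog number) on the 12 arrays (horizontal), with colour giving log2 signal minus the array's 75th percentile and the 3 arrays numbered 3 to the right of the white line. The Hoxd genes are brighter and most Hoxb and Hoxc genes darker on number 3 in each genotype, while Hoxa genes other than Hoxa13 are not set apart.

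Hoxd13, the last gene of its cluster and a factor of digits and the genital region, stood at 3.58 on WT 3 beside -1.50, -2.71 and -2.84 on WT 1, 2 and 5. On Het 3 it stood at 4.03 beside -6.72, -7.26 and -4.04 on Het 2, 4 and 5. On KO 3 it stood at 3.84 beside -6.85, -4.03 and -4.56 on KO 2, 4 and 5. All 3 number 3 arrays lay above all 9 others, by a mean difference of 8.32 (SE 0.89), and a second probe gave 7.99. The gene was well above background on 6 of those 9 arrays, so its fold rests partly on dim signals.

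Hoxd10, a gene of the posterior trunk and limb, was nearly level among the number 3 arrays, at 0.87, 0.78 and 0.79 on WT, Het and KO. Its levels on the others were -5.97, -6.55 and -6.35 for WT, -7.87, -7.79 and -6.43 for Het, and -8.36, -6.71 and -6.84 for KO. The groups did not overlap, and the difference was 7.80 (SE 0.40). Hoxd11, which patterns the forearm, stood at -0.27, -0.87 and -1.37 on number 3, and its highest other array was Het 4 at -4.65. It differed by 6.84 (SE 0.60). Of the 9 other arrays, Hoxd10 was well above background on 5 and Hoxd11 on 2. The size of both differences therefore rests partly on readings near background.

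The remaining compared Hoxd genes differed less. Hoxd8 differed by 4.38 (SE 0.84), with 7.38 in Het and 2.92 and 2.83 in WT and KO. Hoxd9 differed by 2.79 (SE 0.36) on the probe used and by 5.49 on a second. Hoxd4, near the anterior end of the cluster, differed by 2.72 (SE 0.42), and Hoxd12 by 1.87 (SE 0.46). Of the 9 other arrays, Hoxd8 was well above background on 5, Hoxd9 on 6, Hoxd4 on 3 and Hoxd12 on 8. These folds too rest partly on dim signals. The median of the 7 genes was 4.38, with 2.92, 5.84 and 2.83 in WT, Het and KO.

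In the Hoxa cluster, Hoxa13, the distal limb and genital paralog of Hoxd13, was the gene set apart. It stood at -0.56, -1.82 and -2.36 on WT 3, Het 3 and KO 3. The other arrays held -4.01, -4.53 and -4.50 for WT, -5.96, -6.41 and -5.84 for Het, and -5.67, -6.48 and -6.69 for KO. The difference was 3.99 (SE 0.23), with 3.79, 4.24 and 3.92 in WT, Het and KO, and its second probe gave 4.67. Hoxa10 and Hoxa11, its proximal neighbours in the limb series, differed by 0.21 (SE 0.25) and 0.22 (SE 0.37). The value for Hoxa11 averages -1.18, 1.34 and 0.49 in WT, Het and KO. The median over 11 Hoxa genes was 0.02.

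Hoxc9, a thoracic gene, stood at -6.03 on WT 3 beside 2.02, 1.39 and 1.10, at -5.43 on Het 3 beside 1.13, 1.36 and 1.27, and at -6.04 on KO 3 beside 2.63, 3.07 and 2.87. No number 3 array came near another array, and the difference was -7.70 (SE 0.34). Hoxc12, Hoxc10 and Hoxc13, genes of the posterior end, were well above background on all 9 other arrays and on none of the number 3 arrays. On the probes used they are at least 29.6-fold, 56.3-fold and 15.3-fold lower, with the lowest signal called above background as the floor. A second Hoxc10 probe differed by -3.79, which is less than that bound.

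Hoxc6 differed by -5.66 (SE 0.28) and Hoxc8 by -2.16 (SE 0.54), the latter dim on the other arrays too. Hoxc8 was well above background on 0 of the 3 number 3 arrays and 6 of the 9 others, and its bound is only 1.01-fold. At the anterior end Hoxc5 differed by -1.51 (SE 0.22) and was not set apart, and Hoxc4 by 0.11 (SE 0.19). Hoxc4 stood at -2.10, -2.28 and -2.41 on number 3 and between -2.91 and -1.87 on the others, so these groups overlapped. The median over 8 Hoxc genes was -5.76, with -5.59, -5.21 and -5.81 in WT, Het and KO.

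Hoxb2, a gene of hindbrain and anterior trunk, stood at 0.59, 0.70 and 0.44 on the other WT arrays, 1.19, 1.50 and 1.23 on Het and -0.28, -0.20 and -0.14 on KO. On number 3 it read -8.15, -5.72 and -7.29 and was not well above background on any of the 3, at least 99.1-fold lower on the probe used. A second probe differed by -4.40, which is less than that bound. Hoxb3, its neighbour, went the other way. It stood at 0.97, -1.66 and -0.42 on WT 3, Het 3 and KO 3 beside -2.95 to -2.07 on the others, a difference of 2.23 (SE 0.34).

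Hoxb9, at the thoracic end, stood at -4.60 on WT 3 beside 2.19, 1.62 and 1.04, and at -6.18 on KO 3 beside 1.87, 1.75 and 1.52, while Het 3 held 0.31 beside 1.47, 1.98 and 2.76. Het 3 was thus close to its genotype and the other number 3 arrays far from theirs. The differences were -6.22, -7.89 and -1.76 in WT, KO and Het, and a second probe gave -4.15 on average. Hoxb5, Hoxb6 and Hoxb7 differed by -5.15 (SE 0.42), -5.39 (SE 0.50) and -5.35 (SE 0.21). For Hoxb6 a second probe differed by 0.09, so its probes disagree. Hoxb13 differed by -4.13 (SE 0.61), Hoxb8 by -3.26 (SE 0.19) and Hoxb4 by -3.16 (SE 0.40). Hoxb8 was well above background on 0 of the 3 number 3 arrays, which makes it at least 2.17-fold lower. The median over 9 Hoxb genes was -5.15, with -5.22 in WT, -3.57 in Het and -5.91 in KO.

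The neighbours of the clusters were mostly not set apart, and neither were most features, 2.69% being set apart over all 17132. Among the 10 nearest compared features on each side of a cluster, none was set apart around Hoxa on chromosome 6 or Hoxc on chromosome 15. Around Hoxb on chromosome 11, 1 was set apart, Ttll6, a tubulin-modifying enzyme gene next to Hoxb13, at -1.60. Around Hoxd on chromosome 2, 1 was set apart, Gpr155, at 1.62. The medians of the 20 flanking features were -0.14, -0.21, -0.17 and 0.03 for Hoxa, Hoxb, Hoxc and Hoxd. Inside the clusters the array's unnamed transcript TC1432492, between Hoxb3 and Hoxb2, differed by -5.49, and 9530018H14Rik, next to Hoxa13, by 3.59. Neighbour order is that of the array's coordinates on build mm7. The neighbours that were set apart and these transcripts were named after their values were seen.

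**Figure D2:**
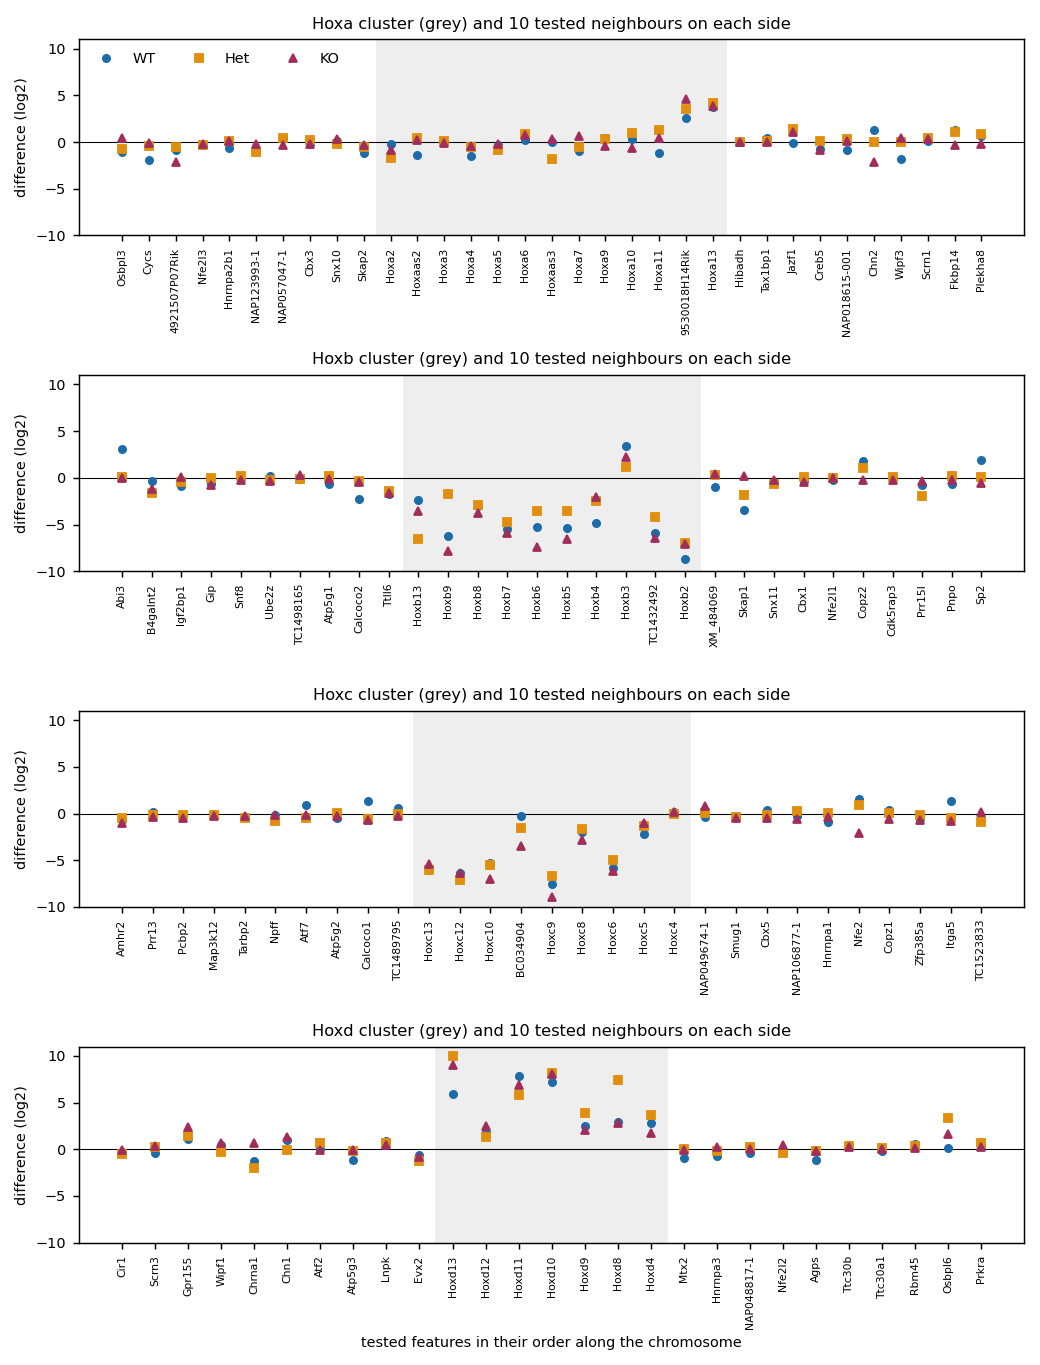
Difference between number 3 and the other arrays of the genotype (vertical, log2) for compared features of each Hox cluster and the 10 on each side in chromosome order (horizontal), with circles for WT, squares for Het and triangles for KO and the cluster shaded. Points leave 0 inside the shaded Hoxb, Hoxc and Hoxd clusters, whose medians are -5.15, -5.76 and 4.38, and lie near it in the flanks, whose medians are between -0.21 and 0.03.

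PBX, MEIS and PKNOX proteins bind DNA together with HOX factors. None of the 9 compared genes was set apart, and their median was -0.04 (0.12 on unscaled signals and 0.02 without KO number 3). Meis1 had the largest difference, -0.79 (SE 0.20), and Pknox2 differed by 1.81 in WT, -0.05 in Het and -0.54 in KO.

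Of 69 compared transcription factors of limb and trunk outside the Hox family, 5 were higher and 2 lower, 10.1% beside 2.69% of all features. The list's median was -0.17, and 0.02 without WT number 3. Nkx3-2 (Bapx1 on the array), a homeobox factor of cartilage, stood at -2.81, -1.21 and -1.06 on WT 3, Het 3 and KO 3 and at or below -6.90 on every other array. It differed by 5.91 (SE 0.36). Tbx4, a T-box factor of hindlimb and lung mesenchyme, stood at -2.42, -1.43 and -1.02 on number 3 and at -4.69 or below elsewhere, a difference of 5.17 (SE 0.75). Msx1, a homeobox factor that keeps limb bud mesenchyme undifferentiated, stood at 4.28, 1.85 and 3.02 beside -2.90 to -0.74, a difference of 4.90 (SE 0.39).

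Lhx2, a factor of limb outgrowth, stood at 1.59, 3.18 and 3.44 on number 3 and between -2.82 and 0.46 on the others, and Lmx1b, which specifies the dorsal side of the limb, differed by 1.49 (SE 0.37). Pax3, a factor of the muscle and dermal precursors of the somite, was lower. It stood at -4.00, -8.06 and -8.42 on number 3 and between -3.26 and -0.88 on the others, a difference of -5.09 (SE 0.57).

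Of these limb and trunk factors, 25 of 69 (36.2%) had differences that were unequal among the 3 number 3 arrays by a limma F test with 1 such array a genotype, beside 9.4% of all features. Pitx1, which gives hindlimb identity, differed by 7.40 in Het and by 1.47 and 0.30 in WT and KO. Tbx5, the forelimb and heart factor, differed by -6.88 in WT, -0.74 in Het and 0.93 in KO. Without WT number 3 the list held 8 higher and 4 lower members and 12 with unequal differences. Pitx1, Tbx5, Msx1, Lhx2 and Lmx1b are named after their values were seen.

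The 24 genes with the largest mean difference, 12 in each direction, were 11 Hox genes and 13 others. Cxcl15, a chemokine best known from lung epithelium, stood at 0.68, 1.22 and -1.24 on WT 3, Het 3 and KO 3, and at or below -5.89 elsewhere. It differed by 7.76 (SE 0.64) and passed the background test on 3 arrays not numbered 3. Cacna2d3, a calcium channel subunit, differed by 7.59 (SE 0.53), Lrrtm3, a synaptic membrane protein, by 6.32 (SE 0.58), Grin3a, a glutamate receptor subunit, by 5.86 (SE 0.52), and Spock3, a matrix proteoglycan, by 5.76 (SE 0.67). Each was above all 9 others on the 3 number 3 arrays.

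Sox2, a factor of neural and pluripotent progenitors, stood at -4.51, -2.40 and -2.0 on number 3 and was not well above background on any of the 9 others, which makes it at least 15-fold higher. Sox6, a factor of cartilage differentiation, stood at -0.69, -1.64 and -2.06 beside -8.30 to -5.72, a difference of 5.73 (SE 0.44). Adamts19, a secreted protease, stood at 2.03 on WT 3, -1.64 on Het 3 and -4.15 on KO 3, all above the others, whose highest was -5.55. Such dim genes depend on the background correction: under the normal-exponential model the differences were 2.03 for Sox2 and 4.77 for Cxcl15.

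Among the genes that were lower, Ptgis, which encodes the enzyme that makes prostacyclin, stood between 0.91 and 1.53 on the 9 and at -4.72, -2.98 and -5.99 on WT 3, Het 3 and KO 3, a difference of -5.80 (SE 0.45). Ankrd1, an ankyrin repeat protein known as a target of the YAP coactivator, stood at 4.51, 5.48 and 5.09 on the other WT arrays, 2.35, 3.34 and 3.25 on Het, and 2.86, 2.65 and 2.66 on KO. On number 3 it read -2.92, -3.29 and 0.05, so KO 3 lay closest to its genotype, and the difference was -5.63 (SE 0.72). Blnk, an adaptor of B cell receptor signalling, differed by -7.07, -8.32 and -3.04 in WT, Het and KO. Vat1l (AI427515 on the array) stood near 0 on the other WT and KO arrays and at -4.48 or below on all Het arrays. It was not well above background on any number 3 array, at least 16.0-fold lower on the probe used, with -3.69 and -1.0 on further probes, and its Het difference was -1.43.

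Wnt proteins are secreted signals read by Frizzled receptors, R-spondins strengthen them, and secreted Frizzled-related proteins and NOTUM blunt them. Of 38 compared Wnt ligands, receptors and antagonists 7 were higher and 2 lower, 23.7% beside 2.69% of all features, and the list's median was 0.14, or -0.04 without Het number 3. Among ligands, Wnt16 stood at 1.02, -1.95 and -1.73 on number 3 beside -6.02 to -2.88, a difference of 3.74 (SE 0.67), and Wnt2 differed by 3.39 (SE 0.63). Of the R-spondins, Rspo1 stood at -0.61, -1.97 and -1.91 beside -7.57 to -4.67, a difference of 4.24 (SE 0.61), and Rspo3 differed by 3.43 (SE 0.61).

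The receptor Fzd4 stood at 2.82, 1.44 and 1.33 on number 3 and between -2.76 and 0.30 on the others, with a difference of 3.22 (SE 0.50). The antagonists were split, with Notum at 2.25 (SE 0.27), Sfrp2 at 1.79 (SE 0.32) and Sfrp4 at -1.85 (SE 0.25). Lef1, a nuclear factor that carries the signal to its target genes, was well above background on all 9 other arrays, between -4.11 and -2.67, and on none of the number 3 arrays, which makes it at least 6.98-fold lower. Members of a list that are named beyond its 3 largest differences were named because they were set apart.

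Collagens and elastic fibre genes were higher more often than lower. Of 41 compared, 29 differed by more than 0 and 12 by less, beside 6938 and 10194 of all features, and their median was 0.57 beside -0.10. Fmod, a proteoglycan that binds collagen fibrils, stood at 3.18, 1.80 and 1.32 on number 3 beside -3.00 to -0.37, a difference of 3.80 (SE 0.62). Col8a2 differed by 3.03 (SE 0.53), Col11a1, of cartilage fibrils, by 2.25 (SE 0.34) and Col12a1 by 2.01 (SE 0.30). Col7a1, of the anchoring fibrils of skin, differed by -2.53 (SE 0.40). Eln, the elastin gene, differed by 5.91 in WT, 4.01 in Het and -0.42 in KO. The list's median was 0.62, 0.35 and 0.10 in WT, Het and KO, and 0.22 over Het and KO with WT number 3 left out.

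Among 24 compared matrix proteases and inhibitors 3 were higher and 1 lower, 16.7% beside 2.69% of all features. Serpine2, an inhibitor of thrombin and plasminogen activators, differed by 2.99 (SE 0.72), Adamts12 by 1.78 (SE 0.28), Mmp16 by 1.29 (SE 0.15) and Mmp10 by -1.99 (SE 0.39). Of 17 compared retinoic acid genes, Cyp26b1, which degrades retinoic acid, differed by 2.48 (SE 0.48), Aldh1a3, which makes it, by 1.80 (SE 0.38), and Crabp1, which binds it in the cytoplasm, by -2.23 (SE 0.40).

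Chemokines and cytokines were mostly lower. Of 22 compared members 6 were set apart as lower and 1 as higher, 31.8% beside 2.69%, and the median was -1.17. Ccl2, which draws monocytes, stood at 0.54, 0.28 and 0.94 on WT 3, Het 3 and KO 3. The other arrays held 5.61, 2.97 and 3.04 for WT, 4.12, 4.22 and 4.37 for Het, and 3.95, 4.57 and 4.52 for KO. The groups did not overlap, and the difference was -3.57 (SE 0.47). Ccl7, encoded in the same cluster on chromosome 11, differed by -2.73 (SE 0.45), Ccl5 by -2.86 (SE 0.31) and Ccl9 by -2.0 (SE 0.24).

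Il33, an alarmin, was well above background on all 9 other arrays and on no number 3 array, at least 9.62-fold lower, and its receptor gene Il1rl1 differed by -2.66 (SE 0.38). Cxcl5, which draws neutrophils, was the exception. It stood at 0.38, 1.40 and -0.64 on number 3 and at -3.18 or below on the others, a difference of 5.31 (SE 0.55). Without WT number 3, when agreement was asked in 2 genotypes only, the list held 6 lower and 1 higher, with a median of -0.62. Cxcl10, an interferon-induced chemokine, stood at 0.51, 0.85 and 3.1 beside 4.04 to 5.07, a difference of -3.07 (SE 0.38).

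Single genes of other lists were set apart as well. Igf2, the imprinted growth factor, stood at 5.55, 1.25 and 1.90 on number 3. The other arrays held 0.82, 3.07 and 2.31 for WT, -3.38, -4.02 and -1.65 for Het, and -2.48, -0.36 and -0.44 for KO. Each number 3 array was above the others of its genotype, by 3.58 on average (SE 0.63), though WT arrays with other numbers overlapped Het 3 and KO 3. Nnat, another imprinted gene, differed by -4.25 (SE 0.57). Igfbp7, a secreted growth factor binding protein, differed by -2.99 (SE 0.55), Pdgfra, the PDGF receptor of mesenchyme, by 2.20 (SE 0.59) with 0.68 on a second probe, C1s1, a complement protease, by 3.14 (SE 0.51), and Egln3, an oxygen-sensing hydroxylase, by -2.0 (SE 0.27). Of the clock genes Rora differed by 1.92 (SE 0.35) and Dbp by 1.41 (SE 0.22).

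Lists of culture state had few members set apart. The 30 ribosome biogenesis genes and Myc targets all differed by less than 0, with a median of -0.65. Myc itself was the member set apart: it stood at 0.58, 1.00 and 1.20 on WT 3, Het 3 and KO 3 beside 3.22, 2.98 and 1.94 for WT, 1.75, 2.64 and 2.92 for Het, and 2.16, 2.30 and 2.39 for KO. All 3 number 3 arrays lay below all 9 others, with a difference of -1.55 (SE 0.32). The median by genotype was -1.31 in WT, -0.48 in Het and -0.12 in KO, and without WT number 3 it was -0.30, with 26 of 30 below 0.

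Immediate early genes, the first genes induced by growth factors, and their feedback inhibitors had 29 of 30 members below 0 and a median of -1.33. Dusp1, a phosphatase that switches off MAP kinases, stood at -0.63, -0.51 and -0.17 on number 3 beside 0.77 to 4.25, a difference of -2.17 (SE 0.50). Dusp4, another such phosphatase, differed by -2.43 (SE 0.61), and Fosl1, a FOS-related factor, by -2.33 (SE 0.56), neither of them set apart. By genotype the median was -2.62 in WT, -0.32 in Het and -0.38 in KO, and without WT number 3 it was -0.49. WT 1 held the highest Dusp1 level, 4.25, and without that array the median was -0.94.

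Cholesterol and fatty acid synthesis genes had 27 of 30 members above 0 and a median of 0.40, with 0.85, 0.16 and 0.37 in WT, Het and KO, and none was set apart. Tm7sf2, an enzyme of late cholesterol synthesis, stood at 3.49, 3.42 and 2.96 on number 3 beside 1.21 to 2.22, so the groups did not overlap, and it differed by 1.41 (SE 0.20). Without WT number 3 the list had 28 members above 0 and a median of 0.28. No member of 41 G1/S and 38 G2/M genes was set apart, and the medians were -0.13 (0.03 on unscaled signals) and 0.05 (-0.05 without WT number 3). Mki67, a marker of cycling cells, differed by 0.46 (SE 0.15). Among 16 sirtuins and histone deacetylases none was set apart, and Hdac4 had the largest difference, 0.85 (SE 0.12).

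In 16 of the 34 lists the sign of the median changed when a single number 3 array was left out. The p53 targets had a median of -0.37 over all, made of -1.66 in WT, 0.10 in Het and 0.56 in KO, and without WT number 3 it was 0.29, with 26 of 33 above 0. Oxidative phosphorylation subunits had 54 of 65 members below 0 (39 on unscaled signals), with a median of -0.19, and without WT number 3 they had 43 above 0, with a median of 0.04. Interferon response genes had a median of -0.47, with 0.52, -1.68 and -0.41 in WT, Het and KO, and without Het number 3 it was 0.09.

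**Figure D3:**
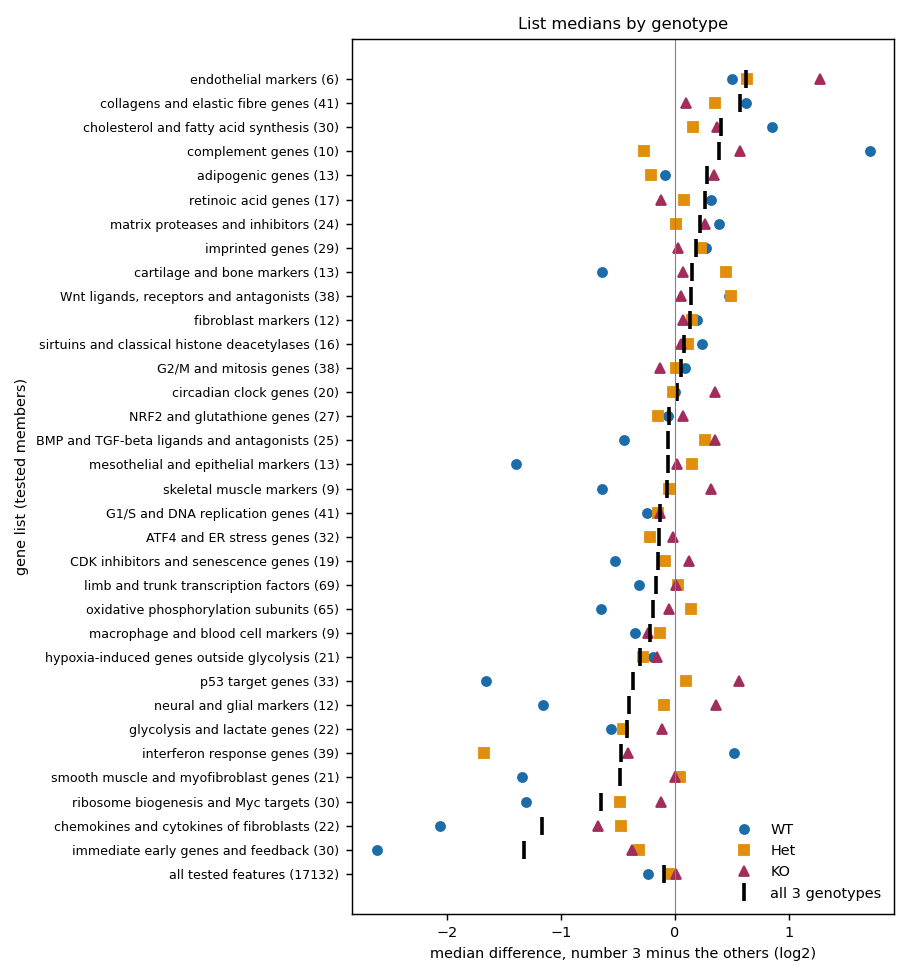
Median difference between number 3 and the other arrays (horizontal, log2) over the compared members of each gene list (vertical, number of members in brackets), with circles for WT, squares for Het, triangles for KO and a black bar for the median of the differences averaged over genotypes; the Hox genes and their cofactors are not drawn. Immediate early genes, chemokines and ribosome biogenesis genes lie lowest, at -1.33, -1.17 and -0.65, and the WT circle is often the farthest from 0.

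Whether the 3 number 3 arrays lay equally far from the other arrays of their genotypes was tested with the limma F test over all features. Each genotype has 1 such array, and the fit takes the spread from the 9 others. Yet over features the differences from the other arrays had an SD of 1.23, 0.92 and 0.89 on WT 3, Het 3 and KO 3. On the 9, for which the other arrays include number 3, the SD was 0.42 to 0.81. How far each selected array stands apart and an effect of genotype cannot be told apart here, and the counts describe these 3 arrays. Of 17130 features, 1611 were called at an adjusted p under 0.05 (9.4%), 363 with the same sign in all 3 genotypes and 1248 with differing signs. WT was the genotype farthest from the other genotypes in 987, KO in 429 and Het in 195. Without WT number 3, 304 of the compared features (1.77%) were called, and without WT number 1, 3106 (18.1%). Among the 460 set-apart features 81 were called.

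Of the Hoxb genes 7 of 9 were called, beside 1 of 8 Hoxc and 0 of 7 Hoxd genes, and 3 of the Hoxb genes were called without WT number 3 and 3 without Het number 3. In the p53 list 16 of 33 were called (48.5%). Cdkn1a, which encodes the CDK inhibitor p21, stood at 0.38 on WT 3 beside 4.43, 3.19 and 3.27, at 2.47 on Het 3 beside 1.45, 1.69 and 1.64, and at 2.44 on KO 3 beside 0.71, 0.99 and 0.66. It was thus below the others on WT 3 and above them on Het 3 and KO 3. Perp, a p53-induced membrane protein, differed by -4.87, 3.64 and 1.37 in WT, Het and KO. Without WT number 3 none of the 33 was called by limma. Cdkn1a and Perp were named after their values were seen.

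Of the 10 called features with the widest range between genotypes, 4 were the developmental regulators Eomes, Isl2, Mab21l2 and Mab21l1. Eomes, a T-box factor of mesoderm and endoderm, stood at -8.21 on WT 3 beside -0.72, -0.58 and -0.18, and at -2.07 on KO 3 beside -5.97, -6.35 and -6.68. It differed by -7.72 in WT, by -0.70 in Het and by 4.27 in KO. Isl2, a LIM homeobox factor of motor neurons, differed by -6.40, 3.58 and 2.12 in WT, Het and KO, and Mab21l2, a factor of eye and body wall, by 1.75, 7.39 and -1.91. Its relative Mab21l1 differed by -7.40 and -6.09 in WT and KO and by 1.70 in Het.

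To compare levels between numbers that the selection did not use, number 5 was set against number 2 in the 9 other arrays. This is a limma contrast with 3 residual degrees of freedom, counted by adjusted p. The set-apart features of number 3 were counted by fold without a p, so the counts are not like for like. limma called 0 of 17131 features at an adjusted p under 0.05 (0%), and 741 had an unadjusted p under 0.05 (4.33%). No Hox gene was called, and 5 of 35 had an unadjusted p under 0.05. All number 2 arrays share a slide and all number 5 arrays another, so slide and number cannot be told apart there.

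Along the autosomes the differences were small beside those of single genes. Chromosome 15 had the lowest median, -0.29, with -0.34, -0.34 and -0.24 in WT, Het and KO, and chromosome 7 the highest, 0.11, with 0.16, 0.13 and 0.10. The same medians for number 5 minus number 2 were -0.02 and 0. Over windows of 50 neighbouring features the lowest median, -0.63, was at chr15:58159673-72626375 and the highest, 0.35, at chr7:26836910-30311454, on mm7. The windows with the most set-apart features were those of the Hox clusters on chromosomes 11, 2 and 15, with 12, 9 and 8, together with chr4:13698203-33082507, with 4 higher and 5 lower.

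**Figure D4:**
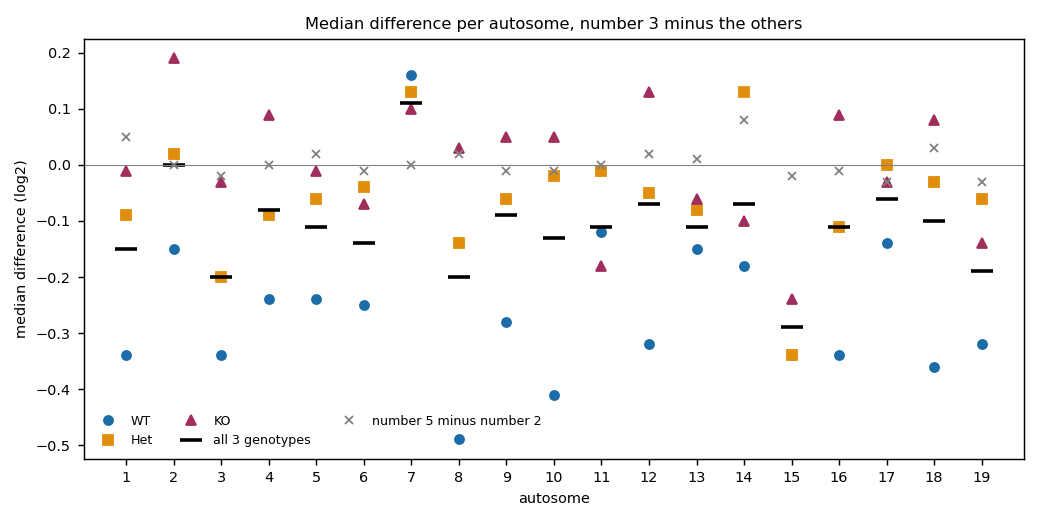
Median difference between number 3 and the other arrays (vertical, log2) over the compared features of each autosome (horizontal), with circles for WT, squares for Het, triangles for KO, a bar for the median of the differences averaged over genotypes and crosses for number 5 minus number 2. Chromosome 15 is lowest in the bars, at -0.29, and chromosome 7 highest, at 0.11.

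Fibroblast markers were well above background on every array, 12 of 12 genes, and their summed level (log2 of the summed scaled signals) was 9.45 to 9.75 on number 3 and 9.18 to 9.90 on the others. Among markers of other cell types, the summed mesothelial and epithelial level was 1.89 to 3.72 on number 3 and 4.43 to 6.06 on the others, without overlap. Msln, a mesothelial surface protein, differed by -3.11 (SE 0.71), while Cdh1, the epithelial cadherin, differed by 2.47 (SE 0.59). Such a sum follows its brightest genes, Msln among them. Over the 13 compared mesothelial and epithelial markers 6 differed by more than 0 and 7 by less. Their median was -0.06, and 0.13 without WT number 3. The summed endothelial level was 2.52 to 2.75 beside 0.83 to 1.99, again without overlap, with Erg, a factor of endothelium and cartilage, at 4.54 (SE 0.70) and Egfl7 at 1.20 (SE 0.18). Pecam1, which defines endothelium, and Ptprc, which defines blood cells, were well above background on 0 of 12 arrays, and Cdh5 on 0 of the number 3 arrays and 3 of the 9 others.

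The summed levels of the remaining marker lists overlapped between number 3 and the others. They were 0.38 to 0.51 beside 0.32 to 1.30 for macrophages and blood, 2.46 to 3.58 beside 3.42 to 4.58 for neural and glial cells, 3.12 to 3.57 beside 2.56 to 5.00 for skeletal muscle, and 3.60 to 5.00 beside 4.62 to 7.03 for cartilage and bone. Nes, an intermediate filament of neural and muscle progenitors, differed by -2.19 (SE 0.26). The part of these cell types in the Hox, Wnt, matrix and chemokine differences was not tested.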

How the data were processed

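Per the file headers, the authors scanned 12 1-colour arrays and extracted them with Agilent Feature Extraction, version 9.5 per the submitters' processing notes. Each deposited array file gives a processed intensity per spot, with background subtracted and no scaling between arrays, and the deposited series table repeats it (largest relative difference 0).

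Control and outlier spots were left out, spots of 1 of the 41174 probes were averaged, and log2 levels were computed from the deposited intensity minus the array's 75th percentile. Of these probes, 22951 were named by accession in RefSeq GRCm38 tables, 6659 by symbol and 3109 by synonym. Probes with mm7 coordinates on X or Y were left out, although 9 compared features without such coordinates have a RefSeq place there. The probe with the highest mean stood for a gene. A feature was compared if well above background on all number 3 arrays or all 3 others of a genotype. Bounds (at least N-fold) use the lowest signal called well above background on each array.

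Fits used limma 3.58.1 in R 4.3.3 (version 1.17.8 of data.table, jsonlite 2.0.0) with Benjamini-Hochberg adjustment over all features. Genotype was a block, with 8 residual degrees of freedom for the difference, 6 for its inequality among genotypes, each with 1 number 3 array, and 3 for number 5 against number 2. Each was tested on simulated data. Figures used matplotlib 3.10.9 in Python 3.11.15.

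The arrays and the 34 gene lists were chosen with earlier results of these data known. Named genes are the 12 largest set apart in each direction with a RefSeq symbol, all Hox genes, the 3 largest of each list and the 10 widest genotype differences, except that some are not reported here. The largest difference of all, 8.75, was that of a transcript the array calls C130021I20, which this rule leaves out.

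Alternatives were other scalings, background corrections, filters, probes and blocks, and leaving out each array. Chromosome medians and list counts under them were added after the data were seen. The number of arrays limits the precision.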

Additional observations from a re-analysis of the deposited data

Results flagged for a closer look

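Of 152 named genes, 51 had unequal differences among the 3 number 3 arrays by the limma F test, at an adjusted p under 0.05, beside 9.4% of all features; 10 of them were named for the width of that range. Each genotype has 1 number 3 array, so a genotype effect and the state of that array cannot be told apart, and the p-values below speak of these arrays. Among Hox genes the limma adjusted p was 0.00211 for Hoxb6, 0.00296 for Hoxb4, 0.00451 for Hoxb9, 0.0114 for Hoxb2, 0.0175 for Hoxb5, 0.0213 for Hoxb13, 0.0226 for Hoxa11, 0.0396 for Hoxb3 and 0.048 for Hoxc9. For Hoxa11 the sign itself changed: the WT difference was -1.18, that of Het 1.34 and that of KO 0.49. Hoxb9, well above background on all 12 arrays, was lower by the least on Het 3. Hoxb2 was well above background on 0 of the 3 number 3 arrays and Hoxb4, Hoxb5 and Hoxb13 on 1, so their differences rest on readings near background.

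Other transcription factors and their partners had limma adjusted p-values of 0.00407 for Pknox2, 0.00908 for Pax3, 0.00407 for Erg, 0.00824 for Klf15 and 0.0073 for Hlf. Of the genes with the largest mean difference they were 0.0465 for Adamts19, 0.0389 for Vat1l, 0.00737 for Blnk, 0.000907 for Ptgis and 0.00456 for Ankrd1, all with the same sign in the 3 genotypes. Fabp4, a fatty acid carrier, was lower on WT 3, by -1.33, and higher on Het 3 and KO 3, by 2.15 and 4.35, with a limma adjusted p of 0.000774.

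For muscle, bone and matrix genes the limma adjusted p was 0.00152 for Synpo2, 0.0266 for Tnnc1, 0.0174 for Spp1, 0.000335 for Eln, 0.0226 for Adamts9 and 0.0351 for Plat. For signalling genes it was 0.0076 for Gdf6, 0.00566 for Crabp1, 0.0439 for Igfbp7, 0.0463 for Igfbp3, 0.0315 for Cxcl10, 0.0441 for Rsad2 and 0.0351 for Fgf21. For genes of stress, cycle and metabolism it was 0.0447 for Plk2, 0.00322 for Pmaip1, 0.0425 for Orc6, 0.0423 for Hk2, 0.0194 for Angptl4, 0.0468 for Egln3, 0.0377 for Car9 and 0.0443 for Dhcr7.

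The 10 widest ranges had limma adjusted p-values of 9.01e-05 for Eomes and Isl2, 0.00023 for Rpl39l, 0.000273 for Glipr1, 0.000367 for Bmp8b and Mab21l1, 0.000383 for Mab21l2, 0.000943 for Slc15a2, 0.0052 for Cck and 0.00737 for Sdk1. Slc15a2 lacked a value on WT 5, which was left out of its fit. Rpl39l differed by -10.14 in WT, where the other 3 arrays stood at 2.57, 1.40 and 1.36, and read -8.72 to -6.87 on every Het and KO array.

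In 11 of 151 named genes a single array stood away from the 8 others among the 9 not numbered 3, by the gap to its nearest neighbour over the range. Chance alone gives about 1 such gene in 20 for 9 values of 1 group. These 9 arrays hold 3 genotypes, and the genes share the arrays, so that rate is only a rough guide to this share. WT 1 was the array in 7: it was highest for Gdf15 (2.45), Atf3 (3.77), Dusp1 (4.25), Il6 (-1.84) and Cd14 (0.48) and lowest for Msln (2.77) and Hoxa5 (-3.26). Het 4 was highest for Hoxd11 (-4.65) and Het 2 for Slc2a3 (0.12). WT 2 was lowest for Tm7sf2 (1.21) and Hdac9 (-7.77).

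Probes of the sex chromosomes stayed outside the comparison and carried a signal on the number 3 arrays. Ddx3y stood at 1.04 and Xist at -2.94 on WT 3. On Het 3, Ddx3y stood at -4.35 and Eif2s3y at -3.92, and on KO 3 at -5.28 and -5.02, all well above background. On the 9 other arrays the highest values were -7.04 for Ddx3y and -6.08 for Eif2s3y, which were well above background on 2 and 3 of them. Kdm5d and Uty were not well above background on Het 3 or KO 3.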

How the results depend on the processing

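Other probes of a gene aside, no set-apart gene named above changed sign under an alternative. A second Hoxb6 probe differed by 0.09, where the probe used differed by -5.39. Of 34 list medians, 16 changed sign without a number 3 array, 5 without another array and 11 under another scaling or background. The counts of 214 features set apart as higher and 246 as lower came to 116 and 146 with normexp background, 109 and 113 among features well above background on all 12 arrays, and 78 and 69 at 4-fold. Leaving out each array in turn gave 207 to 495 and 235 to 638, reaching 386 to 495 and 415 to 638 without the number 3 array of WT, Het or KO, when agreement was asked in 2 genotypes only. The 1611 features unequal among the 3 number 3 arrays came to 923 on unscaled signals, 568 with normexp background, 640 with no filter on dim probes, 1020 with slide as a block, and 294 (without WT number 3) to 3043 (without WT number 1) when arrays were left out, the filter being applied again each time; counts also moved by over 1.5 times without Het number 4 (883), Het number 5 (1029), KO number 3 (772), KO number 4 (830) and KO number 5 (705), and the cause was not tested. Number 5 against number 2 gave 0 features in limma under each alternative. Of the named genes' values under alternatives, 218 moved by more than the spread between arrays and 2554 did not; of list medians, 35 did and 577 did not. Signal over background limits the genes that are dim on 1 side. No paired analysis was possible because the shared number is itself what is compared.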

Other observations

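Lists not described above held few set-apart features. On number 3, smooth muscle and myofibroblast genes had a median difference of -0.48, with -1.34, 0.04 and 0 in WT, Het and KO and 0.09 without WT number 3, and Synpo2, an actin-binding protein of muscle, at -1.98 (SE 0.42). Glycolysis and lactate genes had 19 of 22 members below 0 (16 on unscaled signals) and a median of -0.42, with Slc16a3, the lactate exporter, at 0.25, -2.86 and -2.87 in WT, Het and KO. Complement genes had a median of 0.39 (-0.27 without WT number 3), adipogenic genes 0.28 (-0.14 with normexp background), imprinted genes 0.18 and hypoxia genes -0.31. The median changed sign for BMP and TGF-beta genes (-0.06, but 0.31 without WT number 3 and 0.10 on unscaled signals), ATF4 and ER stress genes (-0.14, but 0.02 on unscaled signals), NRF2 and glutathione genes (-0.05, but 0.27 with slide as a block), senescence genes (-0.15, but 0.01 on unscaled signals), clock genes (0.02, but -0.05 with normexp background) and macrophage markers (-0.22, but 0.02 without WT number 3).

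Among the set-apart genes outside the lists were several ion channel and synaptic genes besides those named by size, chosen here after their values were seen. Cacna1h, a calcium channel, differed by 4.21, Kcnip4, a potassium channel partner, by 4.76 and Slitrk5, a synaptic adhesion protein, by 5.35. On the lower side were Has1, a hyaluronan synthase, at -3.81, Dpt, a matrix protein of skin, at -5.24, and Sprr1a, an epidermal envelope protein, at -5.34.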
